A study of Mus musculus with 6 samples.

Results

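Cholesterol synthesis and sterol transport were described here through 32 named genes of the 56923 in the deposited table, in punches of the mouse locus coeruleus, the noradrenergic nucleus of the brainstem. The genes were taken from a fixed list of symbols: 7 enzymes of the mevalonate steps, 11 enzymes from squalene to cholesterol, 7 sterol sensors and transcription factors, and 7 genes of sterol transport, storage and removal. All 32 were found and all 32 passed the filter on low values, which asked for 10 or more normalized counts in no fewer than 3 libraries, as did 16411 genes in all. Bulk poly-A RNA was compared between 3 wildtype libraries (WT 62, WT 63 and WT 66) and 3 libraries of 5xFAD mice (5xFAD 64, 5xFAD 65 and 5xFAD 79), a transgenic model of amyloid deposition. 5xFAD mice carry human transgenes with familial Alzheimer's disease mutations, driven by a Thy1 promoter that is active mainly in neurons. The labels give neither age, sex, strain nor treatment, and do not say whether a library is 1 animal, so the p-values measure only the spread between these libraries, which may be technical.

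The brain makes nearly all of its own cholesterol, because plasma lipoproteins do not cross the blood-brain barrier. Acetyl-CoA is built up to mevalonate and squalene, squalene is closed into a sterol ring, and the ring is trimmed to cholesterol. When membrane sterol is low, the escort protein SCAP carries the SREBP transcription factors from the endoplasmic reticulum to the Golgi, where they are cut and released to switch on these enzymes. INSIG proteins hold SCAP back when sterol is plentiful. Oligodendrocytes use much of this cholesterol for myelin, astrocytes export it on lipoproteins, and neurons dispose of the excess through hydroxylation by CYP46A1.

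The libraries held between 15158712 and 20079349 reads. For the labels' genotypes 1 gene is of interest. Thy1, whose promoter drives the transgenes, was the only gene with a limma adjusted p under 0.05 over all tested genes. Its log2 fold change was 1.23 (SE 0.11, limma adjusted p = 0.0456). Being taken from this same comparison, it is no separate check of the labels. No gene (0) was under 0.05 with limma without trend and robust moderation, or when WT 62, WT 63, 5xFAD 64 or 5xFAD 79 alone was left out. Noradrenergic markers were present in every library, with summed normalized counts of 8063 to 14496 in WT, against 11284 to 15962 in 5xFAD over 10 genes. Dbh, which makes noradrenaline, ran from 1281 to 2895 normalized counts, and Slc6a2, the noradrenaline transporter, from 2311 to 4978. Of the 10 markers only Hand2, known from peripheral sympathetic neurons, was at 0, in all 6 libraries. Markers of the neighbouring cerebellum differed between libraries, and were highest in WT 63 and 5xFAD 65 within their genotypes. Summed over 7 Purkinje cell markers, the libraries read 4222 to 20454 in WT, against 7489 to 26697 in 5xFAD, and 8 cerebellar granule cell markers read 4601 to 12207 and 7376 to 14574. In bulk samples, fewer cells of a type and less RNA per cell cannot be told apart.

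None of the 32 sterol genes passed the threshold for a difference between the genotypes. With limma on log2(normalized count + 1) and Benjamini-Hochberg adjustment over all tested genes, 0 of 32 members had an adjusted p under 0.05, where 1 of 16411 tested genes did (0.00609%), and the smallest adjusted p of a member was 0.9995. The log2 fold change of 5xFAD over WT was above 0 for 20 members and below 0 for 12, with a median of 0.013 against 0.0005 over all tested genes. It ran from -0.19 for Soat1 to 0.32 for Mvd. At an unadjusted p under 0.05 there were 3 members, Mvd, Stard4 and Soat1, where 381 of all tested genes (2.32%) were below that value. Without WT 62 the count was 0, where 1.82% of all tested genes were below that value. Without 5xFAD 64 or 5xFAD 79 the count was 1, Soat1, where 1.499% and 3.42% of all tested genes were. edgeR and DESeq2, run on the reads recovered from the normalized counts, also had no member past the threshold. They had 3 and 2 members at an unadjusted p under 0.05, where 2.303% and 0.932% of all tested genes were below that value.

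The intervals bound how large a difference these libraries leave room for. The 95% interval of the fold change lay within 1.5-fold in either direction for 30 of 32 members, and for 71.4% of all tested genes. It lay within 1.25-fold for 27 of 32 members, and for 47.2% of all tested genes. Mvd and Nr1h3 had intervals that reached past 1.5-fold, and Mvk, Abca1 and Soat1 reached past 1.25-fold. The members varied little within a genotype: their median SD within groups was 0.0899 on the log2 scale, against 0.138 over all tested genes. This was not particular to the members. For the 69 tested genes that surround the pathway, given further below, the median SD was 0.0896. The interval lay within 1.25-fold for 73.9% of those genes. All tested genes were not matched to the members on level.

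**Figure D1:**
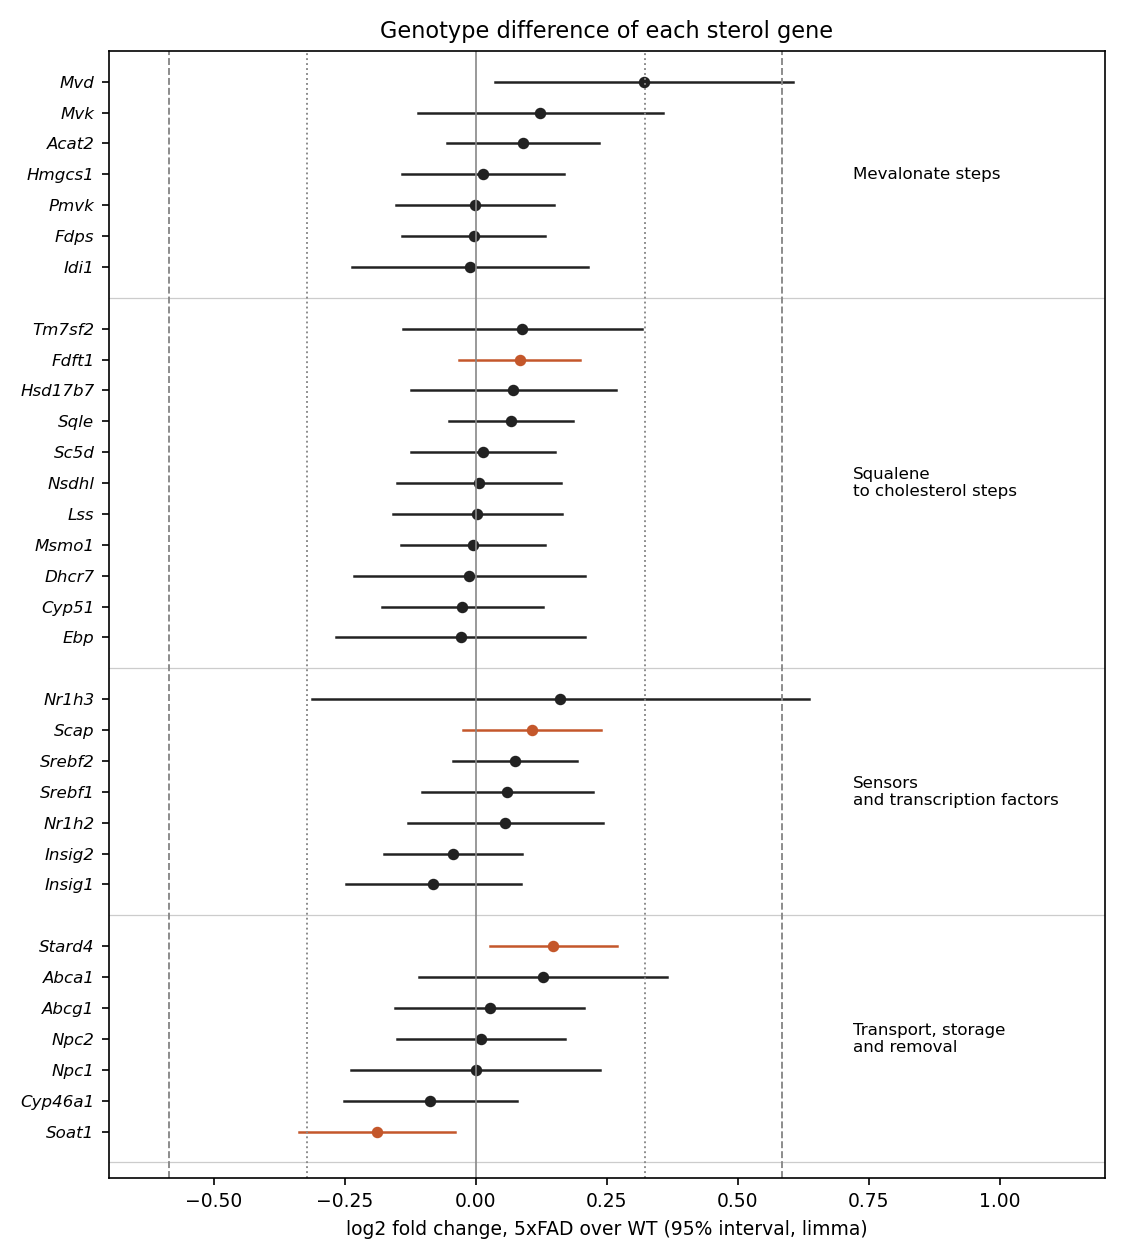
Log2 fold change of 5xFAD over WT for each of the 32 sterol genes (points) with its 95% interval from limma (lines), by role. Dotted lines mark 1.25-fold and dashed lines 1.5-fold in either direction, and the 4 genes in orange are those whose groups did not overlap. The intervals of Mvd, Stard4 and Soat1 leave out 0 and all others include it.

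Sterol enzymes are known for promoters that carry sites for SREBP together with the general factors NF-Y and Sp1. RefSeq promoter windows (GRCm38.p6, 250 bases before to 50 after the gene's start) matched 26 of the 32 members, with 35 windows. The 5 upstream stretches below are shown because Hmgcs1 and Msmo1 are the enzymes with the highest level per exon length in their steps, Insig1 is a sensor that SREBP itself controls, and Mvd and Soat1 had the largest positive and negative log2 fold changes. Capitals mark matches, on either strand, to TCACNCCA (a core of the sterol regulatory element), TCACGTG (an E-box that SREBP can bind), CCAAT (the NF-Y box) and GGGCGG (the Sp1 box). Each is written 5′ to 3′ on the gene's strand and ends at the last base before its start. They lie at chr13:119690101-119690350 on the plus strand for Hmgcs1, chr8:64733579-64733828 on the minus strand for Msmo1, chr5:28071162-28071411 on the plus strand for Insig1, chr8:122443423-122443672 on the minus strand for Mvd and chr1:156474329-156474578 on the minus strand for Soat1.
Hmgcs1: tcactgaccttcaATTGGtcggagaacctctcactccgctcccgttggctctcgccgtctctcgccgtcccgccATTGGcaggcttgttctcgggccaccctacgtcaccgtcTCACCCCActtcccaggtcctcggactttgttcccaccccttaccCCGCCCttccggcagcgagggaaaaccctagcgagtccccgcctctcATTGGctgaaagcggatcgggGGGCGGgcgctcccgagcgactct
Msmo1: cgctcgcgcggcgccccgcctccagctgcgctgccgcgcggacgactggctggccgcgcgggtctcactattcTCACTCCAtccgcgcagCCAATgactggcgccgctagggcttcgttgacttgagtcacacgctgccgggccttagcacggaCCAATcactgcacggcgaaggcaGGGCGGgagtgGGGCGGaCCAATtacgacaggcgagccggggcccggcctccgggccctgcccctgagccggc
Insig1: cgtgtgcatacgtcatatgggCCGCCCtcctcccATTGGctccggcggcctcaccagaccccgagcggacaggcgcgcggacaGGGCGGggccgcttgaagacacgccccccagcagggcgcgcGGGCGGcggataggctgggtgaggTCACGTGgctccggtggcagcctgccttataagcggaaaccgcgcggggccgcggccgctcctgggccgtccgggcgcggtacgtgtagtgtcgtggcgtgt
Mvd: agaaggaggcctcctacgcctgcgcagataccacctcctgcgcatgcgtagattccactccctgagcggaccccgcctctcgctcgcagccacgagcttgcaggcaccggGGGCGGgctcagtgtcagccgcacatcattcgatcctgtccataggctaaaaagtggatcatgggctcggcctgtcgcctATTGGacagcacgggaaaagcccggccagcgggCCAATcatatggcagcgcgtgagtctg
Soat1: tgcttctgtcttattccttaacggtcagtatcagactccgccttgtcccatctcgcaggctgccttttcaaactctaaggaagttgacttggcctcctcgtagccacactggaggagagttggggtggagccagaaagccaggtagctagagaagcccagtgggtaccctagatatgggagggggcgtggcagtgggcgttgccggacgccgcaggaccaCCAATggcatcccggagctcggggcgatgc

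Hmgcs1 holds TCACNCCA at 137 bases before its start, and Msmo1 at 177. Insig1 has TCACGTG at 102 bases before its start. Mvd and Soat1 have neither of these in the window, though both hold CCAAT, at 60 and 27 bases before the start of Mvd and at 30 before that of Soat1. Among members with a window, TCACNCCA was found for 3 of 26 genes (Hmgcs1, Msmo1 and Srebf2) and in 8.57% of member windows, against 4.36% of all 32851 RefSeq windows. TCACGTG was likewise found for 3 genes (Hsd17b7, Sc5d and Insig1), in 8.57% of member windows against 3.77% of all. CCAAT was in 62.9% of member windows and 37.4% of all, and GGGCGG in 77.1% and 35.7%. No 2 different motifs overlapped in a member window (0 cases). These are matches of letters, chosen after the windows had been seen and not adjusted for base composition.

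Enzymes of the mevalonate steps, which turn acetyl-CoA into farnesyl diphosphate, had log2 fold changes from -0.011 to 0.12 apart from Mvd. Among the 7, 4 genes lay above 0 and 3 below, with a median log2 fold change of 0.014. Hmgcs1, the synthase that condenses acetoacetyl-CoA into HMG-CoA, had normalized counts of 7165, 6569 and 7618 in WT 62, 63 and 66 and 7321, 6704 and 7516 in 5xFAD 64, 65 and 79. Its groups overlapped almost fully, and the log2 fold change came to 0.014 (SE 0.069, 95% interval -0.14 to 0.17). Idi1, the isopentenyl diphosphate isomerase, had normalized counts of 2607, 2256 and 2766 across WT, against 2661, 2207 and 2707 across 5xFAD. As with Hmgcs1, WT 63 was the lowest WT library for Idi1 and 5xFAD 65 the lowest 5xFAD library, and the log2 fold change was -0.011 (SE 0.099).

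Mvd, the decarboxylase that makes isopentenyl diphosphate, had the highest fold change among the members. Its normalized counts across WT were 195, 217 and 256 (223 ± 31.1, SD, n = 3), against 294, 245 and 294 in 5xFAD (278 ± 27.9, SD, n = 3). The lowest 5xFAD library lay under the highest WT library, so the groups overlapped. The log2 fold change was 0.32 (SE 0.13, 95% interval 0.036 to 0.61), with a limma p of 0.0309 before adjustment and 0.9995 after it. In the authors' deposited table the value was 0.32, with an adjusted p of 0.9999. Mvk, the mevalonate kinase that acts 2 steps before Mvd, had normalized counts of 211, 245 and 247 across WT, against 270, 243 and 251 across 5xFAD, for a log2 fold change of 0.12 (SE 0.10).

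Between them acts Pmvk, the phosphomevalonate kinase, which was nearly flat at 512 ± 15.6 in WT, against 511 ± 7.25 in 5xFAD (mean ± SD, n = 3 each). Its SD within groups, 0.034 on the log2 scale, was among the smallest of the members. Acat2, the cytosolic thiolase that opens the pathway, had normalized counts of 1358 ± 80.5 in WT, against 1445 ± 69.4 in 5xFAD (mean ± SD, n = 3 each) and a log2 fold change of 0.090 (SE 0.065). Reads of Acat2 may be shared with its close paralog Acat3, which read 28.6 ± 5.89 in WT, against 38.1 ± 11.0 in 5xFAD. Fdps, the farnesyl diphosphate synthase, stood at 1288 ± 45.8 and 1284 ± 62.7. The predicted gene Gm43738 covers 77.4% of the exon length of Fdps on the same strand (GENCODE M21), and it read at most 2.04 in any library.

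The 11 enzymes from squalene to cholesterol showed the narrowest range of differences of the 4 roles. Their log2 fold changes ran from -0.029 (Ebp) to 0.088 (Tm7sf2), and all 11 intervals lay within 1.25-fold. Fdft1, the squalene synthase, had normalized counts of 2191, 2188 and 2102 across WT, against 2342, 2304 and 2222 across 5xFAD. Every 5xFAD library lay above every WT library for Fdft1, and the log2 fold change was 0.084 (SE 0.052, limma p of 0.137 before adjustment and 0.9995 after it). Exons of Ctsb, a lysosomal protease gene on the opposite strand, cover 20.9% of the exon length of Fdft1, and Ctsb read 10148 ± 371 in WT, against 9869 ± 395 in 5xFAD. As the counting strand is not given in the sources used here, reads of these genes may not be told apart.

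Sqle, the epoxidase that oxidises squalene, had normalized counts of 1729, 1622 and 1674 across WT, against 1777, 1723 and 1764 across 5xFAD. Only 5xFAD 65 lay below the highest WT library for Sqle, and the log2 fold change was 0.067 (SE 0.053). Lss, which closes the sterol ring to lanosterol, stood at 932 ± 44.2 in WT, against 934 ± 68.0 in 5xFAD (mean ± SD, n = 3 each). Cyp51, the lanosterol demethylase, had normalized counts of 2316, 2163 and 2346 across WT, against 2346, 2039 and 2329 across 5xFAD. Msmo1, the methylsterol monooxygenase, had normalized counts of 2410, 2250 and 2433 across WT, against 2430, 2203 and 2437 across 5xFAD. For both enzymes WT 63 and 5xFAD 65 were lowest and the other 4 libraries lay close together, with log2 fold changes of -0.026 (SE 0.068) for Cyp51 and -0.0053 (SE 0.061) for Msmo1.

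Later in the pathway, Sc5d, the sterol desaturase, had normalized counts of 2757, 2511 and 2640 across WT, against 2705, 2500 and 2776 across 5xFAD. Dhcr7, the reductase of the final double bond in one branch, had normalized counts of 682, 588 and 704 across WT, against 693, 574 and 691 across 5xFAD. Both enzymes again had WT 63 and 5xFAD 65 lowest, and their log2 fold changes were 0.013 (SE 0.061) and -0.013 (SE 0.098). Nsdhl, a dehydrogenase of the demethylation complex, stood at 622 ± 32.9 in WT, against 625 ± 23.5 in 5xFAD (mean ± SD, n = 3 each). Hsd17b7, the ketone reductase of the same complex, stood at 618 ± 51.0 and 650 ± 54.2. The isomerase Ebp, at 302 ± 36.5 and 295 ± 16.3, and the reductase Tm7sf2, at 217 ± 18.1 and 230 ± 4.47, had the lowest counts of these enzymes.

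**Figure D2:**
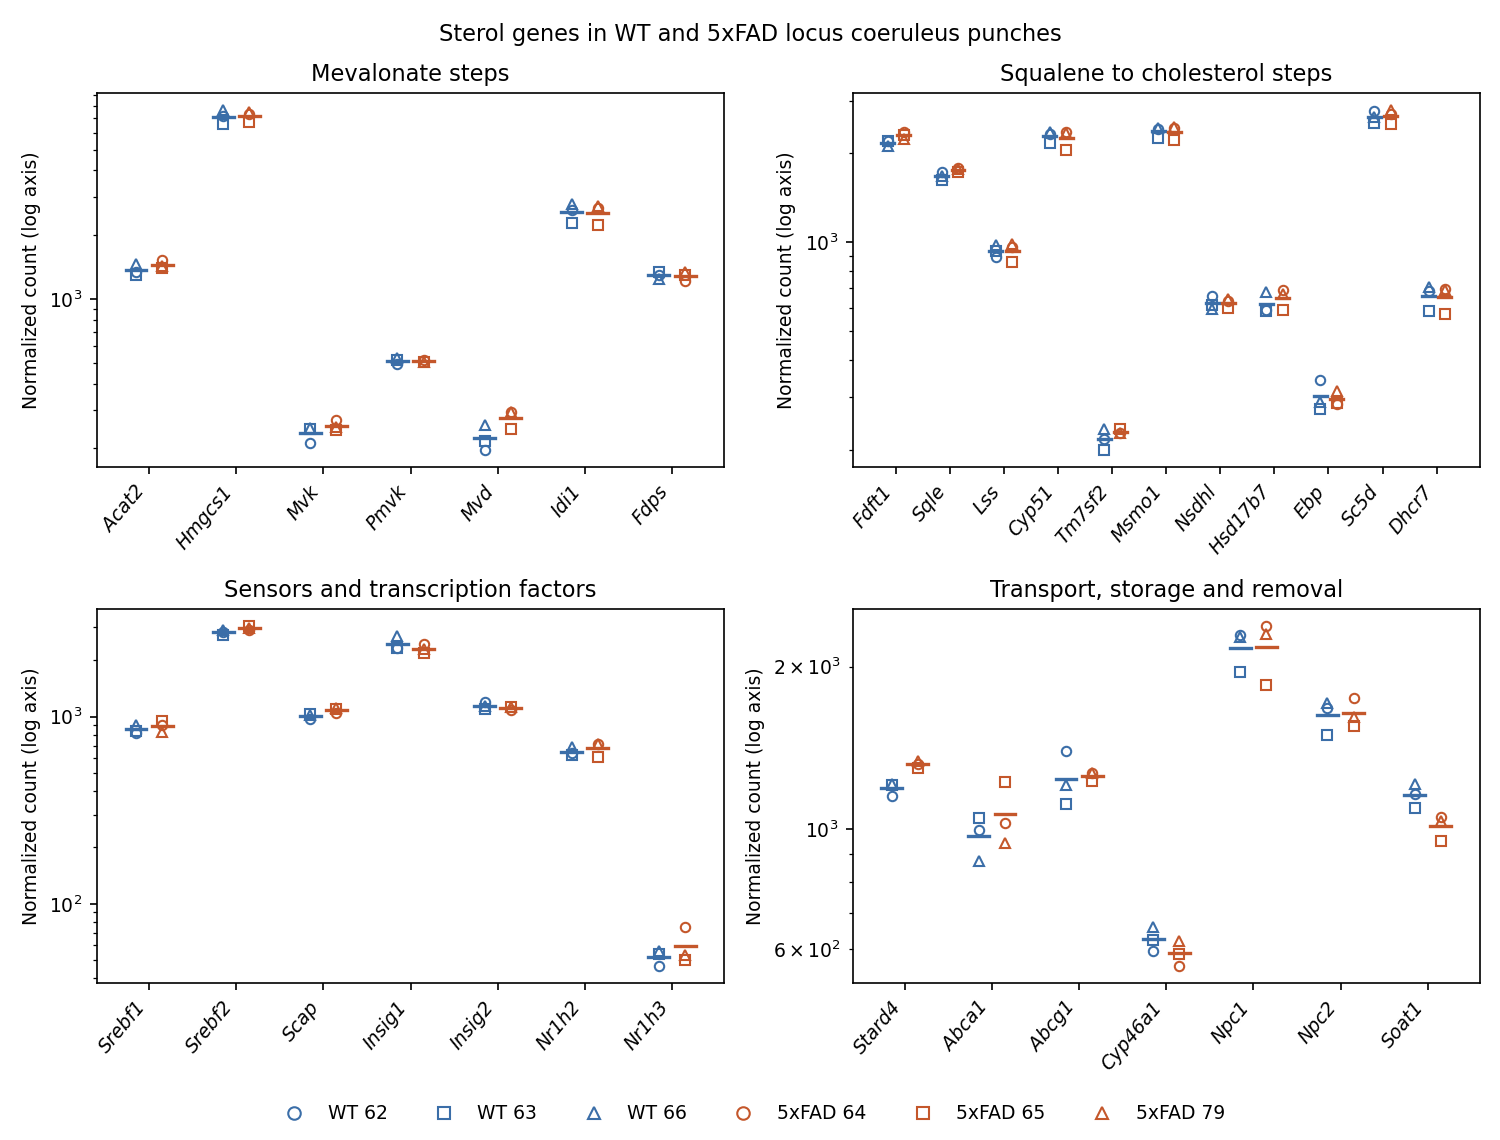
Normalized counts (log axis) of the 32 sterol genes in each library, blue for WT and orange for 5xFAD, with a bar at each group's mean (n = 3) and 1 symbol per library. The colours intermix for most genes, while Fdft1, Scap and Stard4 lie higher and Soat1 lower in all 3 5xFAD libraries.

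Sensors and transcription factors had 5 members above 0 and 2 below, and none of the 7 had an unadjusted p under 0.05. Scap, the sterol-sensing escort of SREBP, had normalized counts of 972, 1030 and 1021 across WT, against 1042, 1102 and 1112 across 5xFAD. The groups did not overlap, and the log2 fold change was 0.11 (SE 0.059, limma p of 0.0989 before adjustment and 0.9995 after it). The opposite-strand gene 5830462I19Rik covers 18.6% of the exon length of Scap and stood at 12.4 ± 6.30 in WT, against 14.2 ± 7.82 in 5xFAD. Srebf2, the SREBP gene that mainly drives cholesterol synthesis, had normalized counts of 2828, 2728 and 2923 across WT, against 2898, 3047 and 2980 across 5xFAD, where 5xFAD 64 fell inside the WT range, for a log2 fold change of 0.074 (SE 0.053). Srebf1, whose product mainly drives fatty acid synthesis, stood at 856 ± 45.0 in WT, against 893 ± 63.2 in 5xFAD (mean ± SD, n = 3 each).

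Insig1, the retention protein that is itself a target of SREBP, had normalized counts of 2324, 2321 and 2717 across WT, against 2457, 2199 and 2288 across 5xFAD. The WT mean was raised by WT 66 alone, and the log2 fold change was -0.082 (SE 0.075). Insig2, its relative, stood at 1147 ± 53.9 and 1112 ± 18.2. Nr1h2 encodes the oxysterol receptor LXR-beta, and stood at 651 ± 33.3 in WT, against 678 ± 62.1 in 5xFAD. Nr1h3, which encodes LXR-alpha, had the lowest normalized counts of all members, at 46.4, 54.2 and 56.2 across WT, against 75.1, 49.9 and 53.0 across 5xFAD. The log2 fold change was 0.16 (SE 0.21, 95% interval -0.31 to 0.64) and rested on 5xFAD 64, since it was -0.018 without that library.

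Sterol transport, storage and removal held the 2 members with the smallest p. Stard4, a soluble carrier that moves cholesterol between membranes, had normalized counts of 1152, 1209 and 1211 across WT (1191 ± 33.1, SD, n = 3), against 1321, 1300 and 1335 in 5xFAD (1318 ± 17.5, SD, n = 3). The groups did not overlap. The log2 fold change was 0.15 (SE 0.054, 95% interval 0.026 to 0.27), which is 1.11-fold, with a limma p of 0.0220 before adjustment and 0.9995 after it. The authors' deposited table gives 0.15 for Stard4, with a p from their comparison of 0.0588 before adjustment and 0.9999 after it. DESeq2 on recovered reads also left Stard4 out of the members at an unadjusted p under 0.05.

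Soat1, which esterifies cholesterol for storage in lipid droplets, was the member with the lowest fold change. Its normalized counts across WT were 1160, 1092 and 1213 (1155 ± 60.4, SD, n = 3), against 1053, 952 and 1036 in 5xFAD (1013 ± 54.2, SD, n = 3). All 3 5xFAD libraries lay below all 3 WT libraries, and the log2 fold change came to -0.19 (SE 0.066, 95% interval -0.34 to -0.040), with a limma p of 0.0183 before adjustment and 0.9995 after it. In the authors' deposited table the value for Soat1 was -0.19, with an adjusted p of 0.9999. Among the 32 members, 4 had groups that did not overlap (Fdft1, Scap and Stard4 higher, Soat1 lower), against 7.42% of all tested genes, of which 3.72% of genes were higher and 3.7% lower in 5xFAD.

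Abca1, the exporter that loads cholesterol onto apolipoproteins, had normalized counts of 995, 1047 and 875 across WT, against 1028, 1225 and 944 across 5xFAD. The library 5xFAD 65 stood above the rest, and the log2 fold change was 0.13 (SE 0.10). Abcg1, an exporter that acts with it, had normalized counts of 1393, 1116 and 1207 across WT, against 1272, 1226 and 1270 across 5xFAD, all within the WT range. Cyp46a1, the neuronal cholesterol hydroxylase, had normalized counts of 594, 624 and 661 across WT, against 558, 589 and 622 across 5xFAD, for a log2 fold change of -0.087 (SE 0.073) and overlapping groups.

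Npc1 and Npc2 release cholesterol from late endosomes and lysosomes, Npc1 as the membrane transporter and Npc2 as the soluble carrier that hands it over. Npc1 had normalized counts of 2285, 1950 and 2267 across WT, against 2375, 1849 and 2299 across 5xFAD. The mean levels of Npc1 were 2167 ± 188 and 2174 ± 284 (SD, n = 3 each), with WT 63 and 5xFAD 65 again the lowest. Npc2 stood at 1627 ± 118 in WT, against 1637 ± 101 in 5xFAD. For Npc1, exons of Rmc1 on the opposite strand cover 9.78% of the exon length.

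Levels can be compared between genes per length only, as normalized count per kb of exon (GENCODE M21). Hmgcs1 was the most abundant member, at 2044 ± 151 per kb in WT, against 2062 ± 122 in 5xFAD (mean ± SD, n = 3 each). Msmo1 followed at 1157 ± 48.6 in WT, then Insig1 at 909.9 ± 84.4, Fdps at 886 ± 31.5 and Idi1 at 840 ± 86.1, and these last 3 lay within their spread of each other. The 2 kinases and the decarboxylase between Hmgcs1 and Idi1 were far lower, with 117 ± 10.2 per kb for Mvk, 299 ± 9.11 for Pmvk and 127 ± 17.7 for Mvd. From squalene on, Fdft1 (584 ± 13.6), Sqle (607 ± 19.5), Cyp51 (579 ± 24.9) and Sc5d (542 ± 25.3) lay between 542 and 607 per kb. Apart from Msmo1, the other enzymes of these steps were lower, from 122 ± 10.1 for Hsd17b7 to 287 ± 15.2 for Nsdhl. Srebf2 (557 ± 19.2) stood above Srebf1 (199 ± 10.5), and Nr1h2 (324 ± 16.6) above Nr1h3 (24.3 ± 2.39), on the same scale in WT. Abca1, at 94.8 ± 8.60, was the lowest transport gene.

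**Figure D3:**
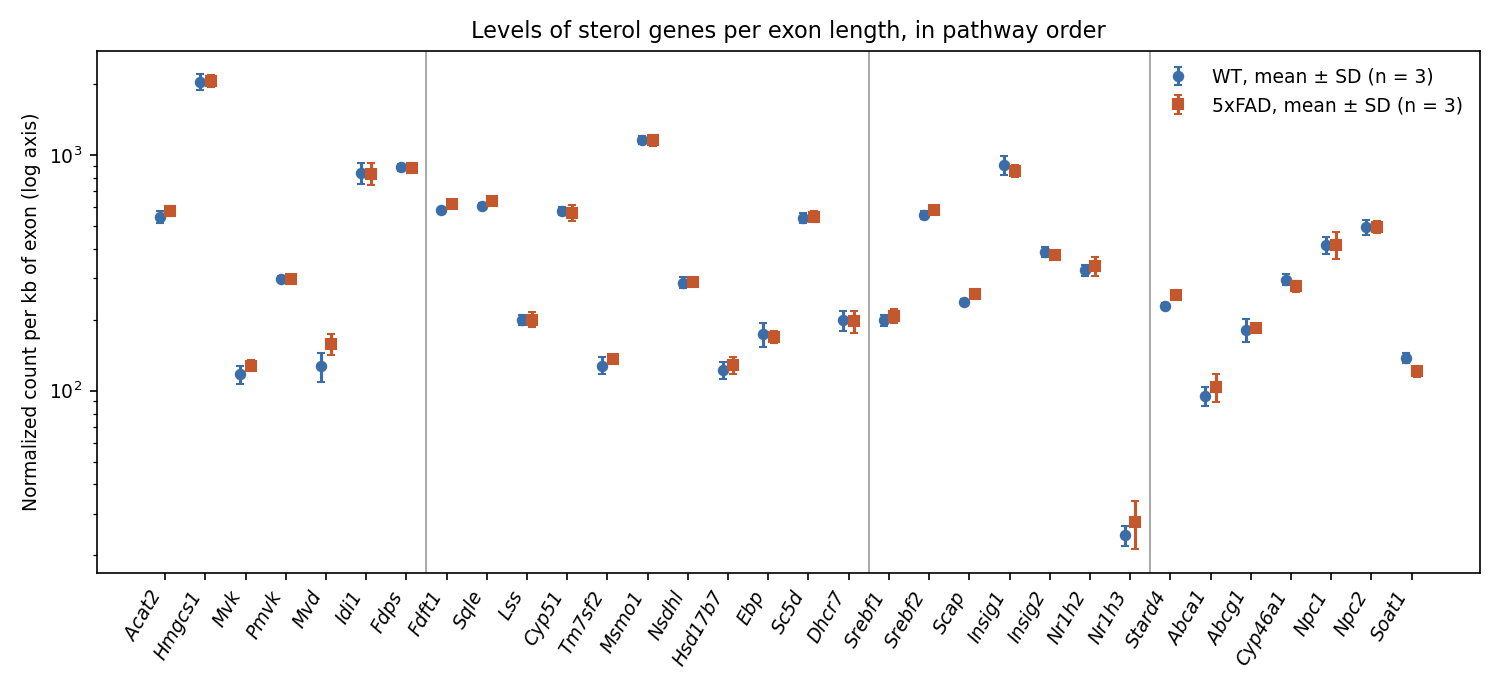
Normalized count per kb of exon (log axis) for each sterol gene in pathway order, mean ± SD over 3 WT (blue circles) and 3 5xFAD libraries (orange squares). Hmgcs1 is highest and Nr1h3 lowest in both genotypes, and the genotypes lie close together at every gene.

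Within each genotype the synthesis enzymes shared a pattern across libraries, which was not theirs alone. Of the 18 enzymes of both synthesis roles, 11 (61.1%) were lowest of the WT libraries in WT 63, where 37.4% of all tested genes were, and 13 (72.2%) were lowest of the 5xFAD libraries in 5xFAD 65, where 37.1% of all tested genes were. For 9 enzymes (50%) both held: Acat2, Hmgcs1, Idi1, Sqle, Cyp51, Msmo1, Hsd17b7, Sc5d and Dhcr7. Over all tested genes that share was 19.6%. The deviations were small: the mean log2 value of the 18 enzymes was 9.94, 9.88 and 9.99 in WT 62, 63 and 66 and 10.02, 9.90 and 10.02 in 5xFAD 64, 65 and 79. These counts describe the libraries, since the enzymes of 1 library share its dissection and its RNA and are not replicates.

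The same libraries differed in markers of other cell types. The mean log2 value of 12 myelinating oligodendrocyte markers was 12.80, 12.56 and 12.94 in WT 62, 63 and 66 and 12.93, 12.52 and 13.10 in 5xFAD 64, 65 and 79, so it too was lowest in WT 63 and 5xFAD 65. Their summed normalized counts ran from 225121 to 285826 in WT, and from 217874 to 339920 in 5xFAD, and none of the 12 was at 0. Purkinje markers had their highest mean log2 value in WT 63 among WT (10.19) and in 5xFAD 65 among 5xFAD (10.48), against 8.01 to 9.59 in the other libraries. Cerebellar granule cell markers reached 10.32 and 10.63 in these libraries, against 7.78 to 10.11 in the others. Noradrenergic markers were also highest in WT 63 among WT (8.72, against 8.57 and 8.03) and in 5xFAD 65 among 5xFAD (8.84, against 8.47 and 8.48). Summed normalized counts of 10 pan-neuronal markers were lowest in both, at 137876 in WT 63 and 128513 in 5xFAD 65, against 143514 to 160896 in the others. Single pan-neuronal markers went both ways. Rbfox3, Syt1 and Stmn2 were highest in WT 63 and 5xFAD 65 within their genotypes, and the other markers of that list were lowest. Syt1 stood at 9884 in WT 63 and 10034 in 5xFAD 65, against 6393 to 7995 in the others. The mean over 10 astrocyte markers stayed between 12.06 and 12.17, though single markers did not. Slc1a3, a glutamate transporter, stood at 6264 in WT 63 and 7474 in 5xFAD 65, against 4016 to 4799 in the others. Gfap, a marker of reactive astrocytes, stood at 1576, 2117 and 1493 across WT, against 3074, 2397 and 2532 across 5xFAD. These groups did not overlap, and Gfap was 1.55-fold higher in 5xFAD with a limma p of 0.0045 before adjustment and 0.9995 after it. Between the genotypes, all 8 cerebellar granule cell, 7 Purkinje and 12 myelinating oligodendrocyte markers had a log2 fold change above 0. Their medians were 1.02, 0.77 and 0.085. Of 9 tested noradrenergic markers 8 lay above 0 and 1 below, and all 6 tested choroid plexus and ependyma markers lay below. None (0) of these had a limma adjusted p under 0.05, and the other marker lists went both ways. The part of the cell type markers in the levels of the sterol genes was not tested.

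**Figure D4:**
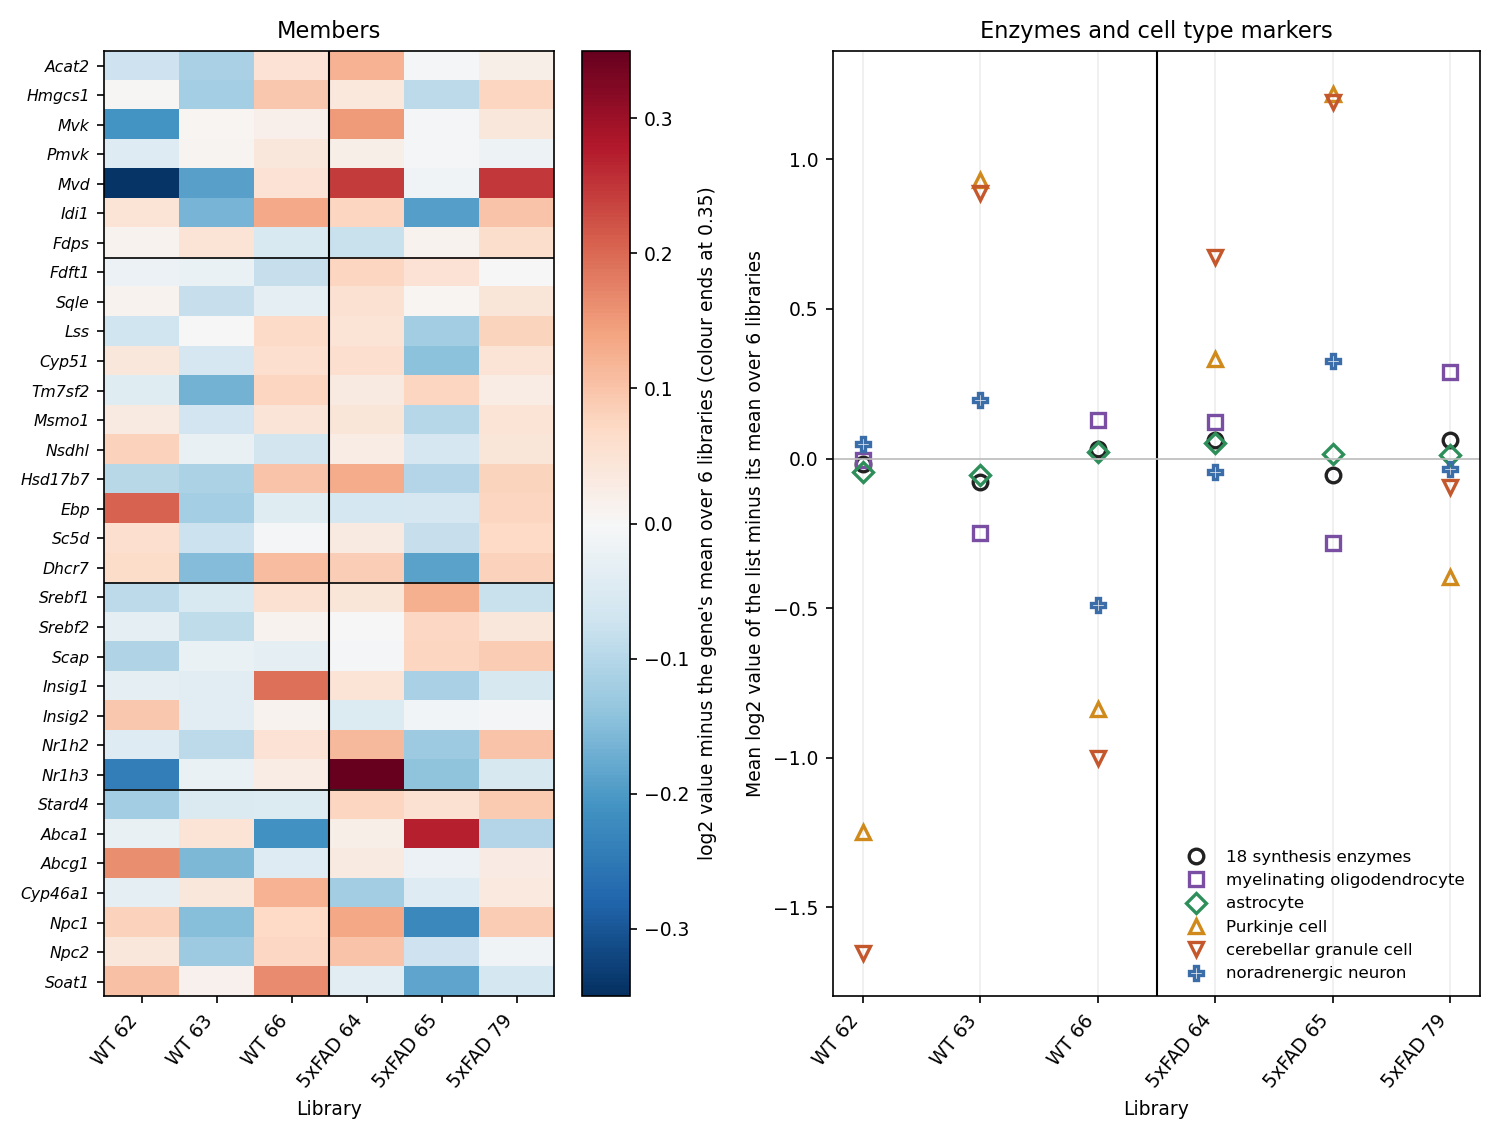
Left, log2 value of each sterol gene in each library minus the gene's mean over the 6 libraries, with colours ending at 0.35. Right, mean log2 value of the 18 synthesis enzymes and of 5 lists of cell type markers in each library minus the list's mean over the 6 libraries. WT 63 and 5xFAD 65 have the lowest values of enzymes and myelin markers and the highest values of both cerebellar lists within their genotypes.

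Without WT 63 and 5xFAD 65, the remaining 2 libraries of each genotype gave 0 members past the threshold and the same 3 members at an unadjusted p under 0.05, Mvd, Stard4 and Soat1, where 6.70% of all tested genes were below that value. That comparison was chosen after seeing the data. For Mvd the lowest library was WT 62, not WT 63, and for Soat1 the lowest library was 5xFAD 65.

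Genes that surround the sterol pathway were also read, as 4 lists with 71 genes, of which 69 were tested and 0 passed the threshold. Their log2 fold changes were above 0 for 35 and below 0 for 34, with a median of 0.0024. At a limma unadjusted p under 0.05 there was 1 of the 69, where 2.32% of all tested genes were below that value. Groups did not overlap for 2 of the 69, 1 higher and 1 lower in 5xFAD, against 7.42% of all tested genes. Soat2 and Ch25h were under the filter and were not tested.

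Among the 16 genes of SREBP processing and LXR partners, 11 lay above 0 and 5 below. Syvn1, a ubiquitin ligase of the endoplasmic reticulum, had normalized counts of 615, 538 and 508 across WT, against 606, 590 and 634 across 5xFAD. Prkaa1, a catalytic subunit of AMP kinase, had normalized counts of 1680, 1519 and 1566 across WT, against 1492, 1321 and 1567 across 5xFAD. Neither had groups apart. Marchf6, a ligase that degrades sterol enzymes, stood at 4711 ± 283 in WT, against 4652 ± 76.7 in 5xFAD (mean ± SD, n = 3 each).

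Fatty acid synthesis, the branch driven mainly by SREBP-1, had 3 of 14 genes above 0 and 11 below, with a median log2 fold change of -0.014. Acly, which makes cytosolic acetyl-CoA for both fatty acids and sterols, had normalized counts of 6916, 7420 and 6741 across WT, against 6641, 6236 and 6914 across 5xFAD, with overlapping groups and a log2 fold change of -0.091. Scd2, the main brain desaturase, had normalized counts of 56144, 50825 and 60439 across WT, against 55342, 52300 and 57956 across 5xFAD. Like the 9 enzymes named above, Scd2 was lowest in WT 63 and 5xFAD 65.

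The isoprenoid branch, which draws farnesyl and geranylgeranyl groups off the mevalonate steps, had 5 of 12 genes above 0 and 7 below, with a median of -0.0053. Ggps1, the geranylgeranyl diphosphate synthase at its head, stood at 1601 ± 44.2 in WT, against 1618 ± 22.5 in 5xFAD (mean ± SD, n = 3 each). Of the other genes of sterol transport and turnover, 16 of 27 tested lay above 0 and 11 below. Cyp7b1, an oxysterol hydroxylase, had normalized counts of 175, 180 and 194 across WT, against 169, 164 and 165 across 5xFAD. Its groups did not overlap, yet the log2 fold change was -0.14 with a limma p of 0.226 before adjustment. Apod, a lipid-binding apolipoprotein, stood at 7812 ± 1532 and 8087 ± 458.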

How the data were processed

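Locus coeruleus was punched from vibratome slices, and poly-A libraries came from a TruSeq RNA kit, per the labels' protocols. STAR, RSEM, DESeq2 and mm39 are named in the submitters' processing notes; versions, annotation and counting strand: not given in the sources used here. The deposited table is named as TPM, but the authors deposited a signal, reads per gene over the size factor of each library: 100% of values were whole multiples of 1 step (tolerance 0.001). Also deposited are a log2 fold change, its standard error, and a p-value and adjusted p-value for each gene, from the authors' own comparison. That comparison sets WT over 5xFAD; printed values have the sign turned.

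Normalized counts were tested as log2(normalized count + 1) in limma 3.58.1 under R 4.3.3 (options for a variance trend and for robust moderation). Genes with a value of at least 10 in at least 3 libraries entered the fit, and p-values were adjusted by Benjamini-Hochberg over the 16411 tested genes, with a threshold of 0.05. Alternatives were TMM scaling, quantile normalization, other pseudocounts and filters, limma without the trend, edgeR 4.0.16 and DESeq2 1.42.0 on recovered reads, and leaving out each library. The fit was also run on simulated reads, drawn for each gene on its own. Differences shared by the genes of 1 library were not simulated. Groups came from the sample titles; the labels pair no libraries. Within groups, libraries differed by more than sampling noise (chi-square per degree of freedom 3.90 to 12.5).

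Symbols were matched by identifier, which named 52073 of 56923 genes (91.5%). Exon lengths are unions of GENCODE M21 exons and promoters are from RefSeq, both on GRCm38, which is not the authors' build. Other genes were named by a rule: up to 4 of each pathway list with the smallest p and the 2 with the highest mean; 1 gene that the rule names is not reported here. The members and lists were chosen with earlier results of these data known.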

Additional observations from a re-analysis of the deposited data

How the results depend on the processing

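No member passed the threshold under any of the 16 alternatives, a count of 0 throughout. The members with an unadjusted p under 0.05 numbered 2 to 3 under the other scalings, pseudocounts, filters and tools. There 0.932% to 3.26% of all tested genes were below that value. These members numbered 0 to 2 when 1 library was left out, where 1.499% to 6.03% of all tested genes were below it. Without WT 62 there was none (0), without 5xFAD 64 and without 5xFAD 79 only Soat1 (1 each). The members whose groups did not overlap numbered 5 to 9 when 1 library was left out, where 13.9% to 23.8% of all tested genes did not overlap, and 10 without WT 63 and 5xFAD 65, where 36.5% did not; the last was chosen after seeing the data. Mvd, Stard4 and Soat1 kept their sign under all 16.

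The sign held under every alternative for 17 members and turned under at least 1 for 15, all with a reported log2 fold change of at most 0.16 in size. Quantile normalization gave -0.0100 for Lss and -0.0104 for Nsdhl. Npc1 was 0.0025 with edgeR and 0.0045 with DESeq2. Without WT 63 and 5xFAD 65 the values were 0.0048 for Pmvk, 0.012 for Fdps, 0.0041 for Cyp51, 0.0075 for Msmo1, -0.029 for Abcg1, 0.038 for Npc1 and -0.012 for Npc2. Leaving out 1 library gave -0.043 to 0.064 for Hmgcs1, -0.026 to 0.017 for Pmvk, -0.095 to 0.083 for Idi1, -0.036 to 0.034 for Fdps, -0.036 to 0.064 for Lss, -0.062 to 0.040 for Cyp51 and -0.041 to 0.043 for Msmo1. It gave -0.024 to 0.048 for Nsdhl, -0.096 to 0.066 for Ebp, -0.022 to 0.057 for Sc5d, -0.093 to 0.077 for Dhcr7, -0.018 to 0.27 for Nr1h3, -0.046 to 0.11 for Abcg1, -0.074 to 0.11 for Npc1 and -0.051 to 0.049 for Npc2. The cause of these turns was not tested. No paired analysis was possible because the genotypes share no replicate numbers. Nr1h3, at 46.4 to 75.1 normalized counts, had the fewest reads and an interval among the widest.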
